A study of Mus musculus with 35 samples.

Results

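Day 9 of an induced loss of Dnmt1 was compared with day 0, before the loss, in mouse embryonic stem cells (ESCs) by sequencing of total RNA depleted of ribosomal RNA. The 8 libraries of this comparison, of 35 in the series, were those that the labels give as genotype Dnmt1 KO at days 0, 1, 3 and 9, with replicates 1 and 2 of each day, and days 1 and 3 served as intermediate points. Day 6 was not used, and the later days and the day 1 libraries numbered replicate 3 entered an alternative fit alone. The 8 libraries of genotype Wildtype (WT) of the same days gave the change over the same span of culture in cells that kept Dnmt1.

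All 16 libraries came from cells that the labels give as ESC of background strain E14. The KO cells carried loxP-flanked Dnmt1 alleles and a Cre recombinase activated by tamoxifen, so that the cells of day 0 still had the gene, and the cells were grown in serum with leukaemia inhibitory factor, with or without feeder cells. The study's methods name C57BL/6 as the strain of the floxed cells, and whether the WT cells received tamoxifen was not stated in the sources used here, and if they did not, an effect of the drug or of Cre and one of the loss of Dnmt1 cannot be told apart. The series text calls the replicates biological, but nothing says that they came from separate cultures, so the p-values measure the spread between these libraries, which may be technical.

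DNMT1 is the maintenance methyltransferase: after DNA replication it copies the methyl groups of CG dinucleotides from the old strand to the new one, and without it methylation is diluted as cells divide. In ESCs, DNA methylation is known to silence a limited set of genes, among them genes of the germline and of meiosis, and it marks 1 parental copy of imprinted genes, where a methylated control region can either silence a gene or keep a repressor away from it. Genes of other pathways can change in later steps, such as targets of p53, which respond to DNA damage, or targets of ATF4, the transcription factor that switches on amino acid synthesis when amino acids are short.

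Promoters of 6 genes are shown first as examples of the germline and ATF4 groups described below, chosen after their values were seen. Rpl39l, Cox7b2 and Dazl are germline genes that rose, Sycp3 is a germline gene that fell, and Pycr1 and Chac1 are genes of the ATF4 group that fell and hold letters that ATF4 is known to bind. Each line gives the 250 bases before the RefSeq start of the gene, 5′ to 3′ on the strand of the gene, in build GRCm38.p6. They lie at chr16:10169978-10170227 (plus strand), chr5:71548206-71548455 (minus strand), chr17:50293621-50293870 (minus strand), chr10:88459337-88459586 (plus strand), chr11:120643749-120643998 (minus strand) and chr2:119350992-119351241 (plus strand). In the first 4, capitals mark CG dinucleotides, the bases that DNA methylation modifies, and the letters CACGTG (an E-box) and TTCCCGC or its complement GCGGGAA (an E2F-type site) where present, and in the last 2 they mark TGATGCAA or its complement TTGCATCA, a composite site known to bind ATF4.

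The 6 promoter sequences, from RefSeq, were these.
Rpl39l: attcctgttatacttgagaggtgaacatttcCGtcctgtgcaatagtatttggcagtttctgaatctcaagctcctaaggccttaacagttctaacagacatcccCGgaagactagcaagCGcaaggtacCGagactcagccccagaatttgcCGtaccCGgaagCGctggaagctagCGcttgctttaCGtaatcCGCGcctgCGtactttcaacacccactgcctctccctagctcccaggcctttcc
Cox7b2: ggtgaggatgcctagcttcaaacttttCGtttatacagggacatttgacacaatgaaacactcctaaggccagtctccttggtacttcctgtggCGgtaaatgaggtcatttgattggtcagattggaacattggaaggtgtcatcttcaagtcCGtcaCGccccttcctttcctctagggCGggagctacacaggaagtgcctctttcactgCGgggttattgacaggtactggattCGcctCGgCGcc
Dazl: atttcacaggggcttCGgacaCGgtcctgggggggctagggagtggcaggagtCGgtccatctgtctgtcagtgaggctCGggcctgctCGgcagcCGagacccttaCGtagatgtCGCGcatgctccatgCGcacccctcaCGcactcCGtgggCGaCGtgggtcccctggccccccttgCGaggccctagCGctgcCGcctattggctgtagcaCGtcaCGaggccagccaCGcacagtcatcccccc
Sycp3: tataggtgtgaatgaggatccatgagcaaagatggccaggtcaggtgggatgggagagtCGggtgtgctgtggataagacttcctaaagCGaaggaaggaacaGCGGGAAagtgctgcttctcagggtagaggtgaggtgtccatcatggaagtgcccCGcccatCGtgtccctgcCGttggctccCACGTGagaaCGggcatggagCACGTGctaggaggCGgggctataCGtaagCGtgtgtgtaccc
Pycr1: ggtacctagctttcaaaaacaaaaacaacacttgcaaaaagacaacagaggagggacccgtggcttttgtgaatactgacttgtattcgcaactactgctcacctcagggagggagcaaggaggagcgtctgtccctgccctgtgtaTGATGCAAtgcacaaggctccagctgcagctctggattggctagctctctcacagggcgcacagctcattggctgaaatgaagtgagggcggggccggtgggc
Chac1: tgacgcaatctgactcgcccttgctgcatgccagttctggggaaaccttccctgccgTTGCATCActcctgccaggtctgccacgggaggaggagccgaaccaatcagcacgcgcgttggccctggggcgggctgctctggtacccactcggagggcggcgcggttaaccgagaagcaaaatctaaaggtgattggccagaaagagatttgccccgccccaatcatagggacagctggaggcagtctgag

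The promoter of Rpl39l held 12 CG dinucleotides, that of Cox7b2 held 9, that of Dazl held 20 and that of Sycp3 held 12, beside a median of 6 over all 32851 promoters in the RefSeq table and of 17 over the 5186 tested genes with a single promoter there. The 113 genes with a single promoter that rose by at least 1 log2 unit at day 9 had a median of 9. The Sycp3 promoter held both CACGTG and TTCCCGC, and these letters were found on either strand in 6.02% and 3.82% of all promoters and in 9.37% and 8.10% of the promoters of the tested genes with a single one. Of the 16 tested germline genes with a single promoter, 4 held CACGTG (Ddx4, Mael, Sycp3 and Stag3) and 5 held TTCCCGC (Ddx4, Sycp3, Rpl10l, Tuba3a and Smc1b). TGATGCAA was found in 0.791% of all promoters, in 0.598% of those of the tested genes and in 3 of the 16 genes of the ATF4 group with a single promoter (Pycr1, Chac1 and Aars). A match of letters is a description of these windows and not a measured binding site.

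The 8 KO libraries had a depth of 24.9 to 62.8 mega-reads with 5.44 to 13.8 mega-reads in exons of genes, and all 16 libraries had between 21.4% and 22.4% of their reads in exons, against up to 49.9% in libraries of other days. The 2 libraries of a group correlated across genes with a Pearson r from 0.9946 to 0.9958, and in every group they differed by more than the sampling noise of their reads. Levels are given as linear RPKM, which are reads for each kilobase of a gene's exons and each mega-read sequenced. The 8 ESC markers had a summed level between 211 and 216 RPKM in the KO day 0 libraries and between 195 and 197 at day 9, and all 8 were tested, so the labelled cell type was borne out by its markers. Each change given below is on the log2(RPKM + 0.1) scale with its standard error, which understates the change of genes with low levels, and the p-values are from limma's moderated test, adjusted by the method of Benjamini and Hochberg over 9331 genes. In bulk RNA, fewer cells of a type and less RNA per cell cannot be told apart.

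Dnmt1 itself (NCBIM37 chr9:20711650-20757317, minus strand) fell to a low level by day 1 and stayed there. Its levels in the KO libraries were 18.7 and 18.5 RPKM at day 0, 2.86 and 3.04 at day 1, 2.84 and 2.78 at day 3, then 3.31 and 3.12 at day 9. The mean of day 0 was 18.6 ± 0.149 RPKM (SD, n = 2), and days 1, 3 and 9 were at 15.9%, 15.1% and 17.3% of it. Between day 0 and day 9 Dnmt1 changed by -2.49 ± 0.05 on the log2 scale (limma, adjusted p = 6.5e-14), and the WT libraries were at 18.2 and 18.4 RPKM at day 0 and 19.9 and 19.5 at day 9. The day 9 libraries still held 752 and 574 reads of the gene, and which exons they came from was not analysed here.

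Over all genes tested, 2430 were called higher and 2271 lower at KO day 9 than at KO day 0 (adjusted p below 0.05 with limma), which is 26.0% and 24.3% of the genes tested. Most of these changes were small, and large changes were mostly rises: 226 genes (2.42%) rose by at least 1 log2 unit and 31 (0.332%) fell by as much. Of the 226, 98 passed the filter on low levels (RPKM above 1 in at least 2 of 16 libraries) through KO libraries after day 0 alone, a route that favours genes with a rise, and among the 8902 genes that passed it without those libraries 128 rose (1.44%) and 30 fell (0.337%) by as much. In the WT libraries 1807 genes (19.4%) were higher and 1725 (18.5%) lower at day 9, but 18 rose and 20 fell by at least 1 log2 unit. Of the genes called in the KO cells, 930 rises and 927 falls were also called in the same direction in WT, while 183 genes rose in KO and fell in WT and 119 did the reverse. The change from day 0 to day 9 differed between KO and WT, tested as an interaction, in 1333 genes whose difference was positive (14.3%) and in 1164 whose difference was negative (12.5%), and 209 of the 226 large rises were among the first. Under a scaling that set the medians of all libraries equal, 1951 genes were called higher and 3076 lower at KO day 9, and the difference between KO and WT was positive in 1130 and negative in 1580 genes. With the filter raised to RPKM above 4, which left 4000 genes to test, 883 were higher and 1514 lower at KO day 9. With the libraries of later days and the day 1 libraries numbered replicate 3 added to the fit, 215 were higher and 50 lower. The added libraries have more reads in exons (48.1% to 48.6% at day 1), so the day 1 groups of that fit mix both kinds. What this mixing did to the calls was not tested. Below, this is named the fit with later libraries added.

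The comparison was then split by the first day on which a gene differed from KO day 0 in the direction it had at day 9. At day 1, 2175 genes were higher (23.3%) and 1916 lower (20.5%) than at day 0, and at day 3 the counts were 2975 (31.9%) and 2382 (25.5%), or 2293 and 3191 with the medians set equal. All these contrasts share the KO day 0 libraries, so the classes are a description and have no test of their own. Of the 2430 genes higher at day 9, 1043 were first higher at day 1 (42.9%), 894 at day 3 (36.8%) and 493 at day 9 (20.3%). Of the 2271 genes lower at day 9, 963 (42.4%), 636 (28.0%) and 672 (29.6%) were first lower at those days. The earlier a class, the more of it was shared with WT: 52.7% of the rises first called at day 1 were also called higher in WT at day 9, against 34.0% for day 3 and 15.4% for day 9, and for the falls the shares were 61.8%, 37.9% and 13.5%.

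The timing of the large rises depended on how the first day was set. Of the 226 genes that rose by at least 1 log2 unit, 76 were first called at day 1, 126 at day 3 and 24 at day 9, and a median of 66.0% of their day 9 change on the log2 scale was present at day 3, against 94.9% over all 2430 rises. Without the 98 genes that passed the filter through later KO libraries alone, the counts were 56, 59 and 13 and the median was 68.0%, against 97.3% over the 2145 rises that remained. Where a change of at least 1 log2 unit was asked for at each day as well as the call, 3 of the 226 were first counted at day 1, 107 at day 3 and 116 at day 9. From day 3 to day 9, 136 of the 226 rose further and 18 fell back (77 and 16 of the 128), and over all genes tested 1380 rose (14.8%) and 1734 fell (18.6%) in that step. When the first day was taken from the difference between the KO and the WT change in place of the KO change alone, a rule added after the values were seen, 46 rises were first called at day 1, 509 at day 3 and 778 at day 9, and the falls numbered 19, 346 and 799. The day 1 contrast of KO with WT called 72 genes with a positive and 30 with a negative difference, so most changes of the KO cells at day 1 were not told apart from those of the WT cells.

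**Figure D1:**
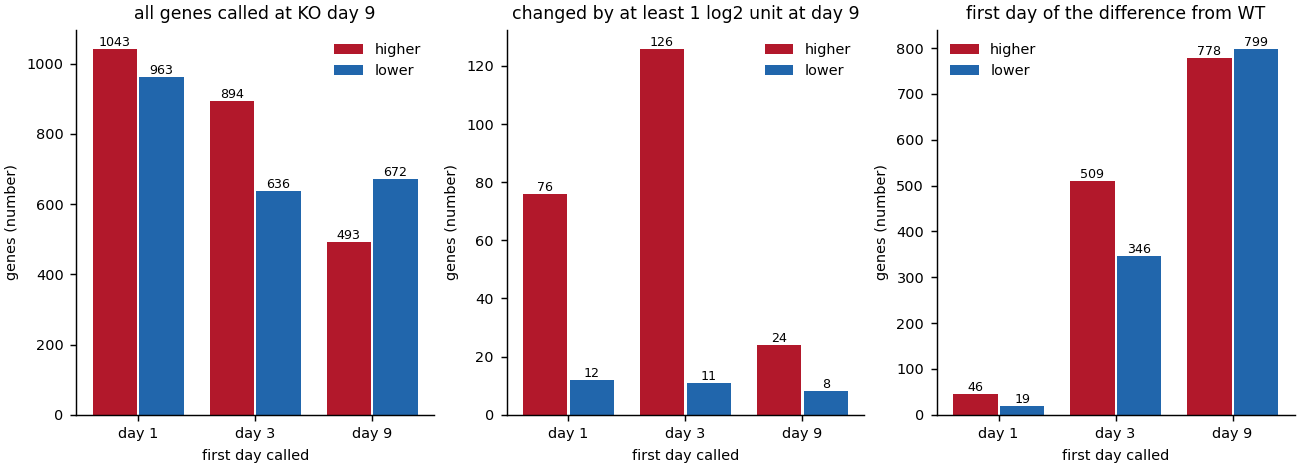
Number of genes (y axis) by the first day on which they were called (x axis: days 1, 3 and 9), in red for genes higher and in blue for genes lower at day 9. The left panel shows all genes called at KO day 9 against KO day 0 (1043, 894 and 493 higher), the middle panel those that changed by at least 1 log2 unit by day 9 (76, 126 and 24 higher, of which 98 in all passed the filter through later KO libraries alone), and the right panel the classes taken from the difference between KO and WT (46, 509 and 778 higher).

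Genes of the germline were among the largest rises, most of them from day 3 on, but not all germline genes rose. Of 40 listed germline genes, 23 were tested, of which 5 (Cox7b2, Dpep3, Fkbp6, Smc1b and Stk31) passed the filter on low levels through KO libraries after day 0 alone. Of the other 18, 9 were higher and 4 lower at day 9, beside 26.0% and 24.3% of all genes, and their median change was 0.26. Shares of all genes, here and for the lists below, are over the 9331 tested. Among the 8902 that passed the filter without the later KO libraries, 2145 were higher and 2260 lower at KO day 9. In WT the counts of these 8902 were 1744 and 1682, and the difference between KO and WT was positive for 1143 and negative for 1157. At day 1, 2 of the 18 germline genes were higher and 8 lower, beside 23.3% and 20.5% of all genes. At day 3, 8 of the 18 were higher and 6 lower, beside 31.9% and 25.5%. In WT, 1 of the 18 rose and 7 fell by day 9, beside 19.4% and 18.5% of all genes. The difference between KO and WT was positive for 10 and negative for 3, beside 14.3% and 12.5%.

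Rpl39l (NCBIM37 chr16:10170319-10175004), which encodes a testis-enriched copy of a ribosomal protein of the large subunit, was at 1.24 and 1.34 RPKM at day 0, 1.81 and 1.80 at day 1, 8.24 and 8.70 at day 3, then 13.7 and 14.4 at day 9 in the KO libraries. Separation of the day 0 and day 9 KO libraries was a condition for naming it. It was first called higher at day 1, and most of the rise was present by day 3. It rose by 3.35 ± 0.11 (limma, adjusted p = 3.06e-11), while WT was at 1.33 and 1.46 RPKM at day 0 and 1.40 and 1.68 at day 9, and the difference between KO and WT was 3.22 ± 0.16. Reads of this gene may be shared with its near-identical relative Rpl39, so its level is uncertain to that extent.

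Cox7b2, a testis form of a subunit of cytochrome c oxidase, was at 0.363 and 0.323 RPKM at day 0, 0.462 and 0.156 at day 1, 1.99 and 2.15 at day 3, then 4.97 and 4.70 at day 9, a change of 3.48 ± 0.26. Cox7b2 passed the filter on low levels through later KO libraries alone, a route that favours a rise, so no p-value is given for this change. In WT it was at 0.523 and 0.512 RPKM at day 0 and 0.235 and 0.228 at day 9 and fell (-0.90 ± 0.26, limma, adjusted p = 0.0151). Its promoter above was among those with fewer CG dinucleotides than the median of the tested genes. Dazl, an RNA-binding protein of germ cells, was at 1.25 and 1.22 RPKM at day 0, 1.26 and 1.14 at day 1, 2.67 and 2.54 at day 3, then 4.22 and 4.19 at day 9, so that it did not differ at day 1 beyond the spread (log2 change -0.04 ± 0.09, limma, adjusted p = 0.726), and it rose by 1.02 ± 0.09 at day 3 and by 1.69 ± 0.09 at day 9 (limma, adjusted p = 2.41e-09). WT stayed between 1.15 and 1.296 RPKM at days 0 and 9. Its promoter was the richest in CG dinucleotides of the 4 germline promoters printed.

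Hormad1, a protein of the axis of meiotic chromosomes, first fell and then rose: its levels were 1.98 and 1.74 RPKM at day 0, 1.32 and 1.49 at day 1, 2.85 and 2.76 at day 3, then 6.76 and 7.22 at day 9, a change of -0.38 ± 0.10 at day 1 (limma, adjusted p = 0.00805) and of 1.86 ± 0.10 at day 9 (limma, adjusted p = 5.15e-09). Fmr1nb, an X-linked gene expressed in testis, was at 1.05 and 1.105 RPKM at day 0, 1.04 and 1.296 at day 1, 3.97 and 3.56 at day 3, then 7.43 and 6.996 at day 9, a rise of 2.63 ± 0.11. Both day 9 libraries of each gene were above all earlier KO libraries, but for Fmr1nb separation from day 0 was a condition for naming it. Sohlh2, a transcription factor of early germ cells, rose by 1.33 ± 0.10, and Smc1b, the meiotic form of a cohesin subunit, by 1.95 ± 0.15, while Fkbp6, a chaperone partner needed in spermatogenesis, was at 0.142 and 0.175 RPKM at day 0 and 2.01 and 1.79 at day 9. Smaller rises were found for Tex19.1 (0.49), Rpl10l (0.34), Stk31 (0.67) and Stag3 (0.25), and Stag3, another meiotic cohesin subunit, rose further in WT (0.59). Of these genes, Smc1b, Fkbp6 and Stk31 passed the filter through later KO libraries alone, a route that favours a rise.

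Sycp3, which encodes a component of the lateral element of the synaptonemal complex, went the opposite way. Its levels were 3.27 and 2.74 RPKM at day 0, 3.48 and 3.69 at day 1, 2.24 and 1.59 at day 3, then 0.900 and 0.702 at day 9. It fell by 1.79 ± 0.14 by day 9 (limma, adjusted p = 1.61e-07), with day 9 also below the KO libraries of days 1 and 3, while separation from day 0 was a condition for naming it. In WT it was at 2.27 and 2.70 RPKM at day 0 and 2.74 and 2.83 at day 9. Sycp3 overlaps Chpt1 on the opposite strand, and since overlapping genes on opposite strands could share reads in this table, as the pair Gm10260 and Gm17290 did in all 16 libraries, its value is uncertain to that extent. The other germline falls were Tex11 (-1.23), Ddx4 (-0.48) and Mael (-0.33), of which Tex11, a meiotic recombination factor, and Mael, a factor of the piRNA pathway, fell in WT too (-0.66 and -0.50). Tuba3a, a testis tubulin, peaked at day 3: its levels were 0.700 and 0.665 RPKM at day 0, 1.29 and 1.16 at day 1, 2.47 and 2.39 at day 3, then 1.40 and 1.44 at day 9. Dpep3, a testis dipeptidase, was at 0.278 and 0.228 RPKM at day 0, 0.414 and 0.319 at day 1, 1.07 and 1.19 at day 3, then 0.400 and 0.443 at day 9, with a change of 0.57 ± 0.20 at day 9 and of 0.69 ± 0.20 in WT.

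Imprinted genes moved in both directions, and those that rose did so at different days. Of 42 listed, 26 were tested, 7 of which (Inpp5f, Meg3, Mirg, Rtl1, Sfmbt2, Xlr3a and Xlr3b) passed the filter through KO libraries after day 0 alone. Of the other 19, 14 were higher and 4 lower at day 9, beside 26.0% and 24.3% of all genes, with a median change of 0.55. In WT 7 were higher and 5 lower, beside 19.4% and 18.5% of all genes. At day 3, 9 of these 19 were higher and 5 lower in KO, beside 31.9% and 25.5% of all genes. Of the 14 called higher at day 9, 5 were first called at day 1, 5 at day 3 and 4 at day 9, and a median of 53.9% of their change was present at day 3, against 97.3% over the 2145 rises that passed the filter in the same way.

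The Dlk1-Dio3 domain, in which Meg3, Rian and Mirg are non-coding RNAs of the maternal copy, rose after day 3. Rian (NCBIM37 chr12:110842155-110899919) was at 1.03 and 1.1 RPKM at day 0, 0.818 and 0.941 at day 1, 1.11 and 1.13 at day 3, then 17.9 and 17.3 at day 9, so the first 6 libraries lay between 0.818 and 1.13 and both day 9 libraries were far above them. It rose by 3.92 ± 0.11 (limma, adjusted p = 3.77e-12), and of this 3.86 ± 0.11 came between days 3 and 9, while WT fell (-0.45 ± 0.11, limma, adjusted p = 0.00631). Meg3 was at 0.208 and 0.236 RPKM at day 0, 0.292 and 0.311 at day 3, then 2.11 and 2.05 at day 9. Mirg, the host of a microRNA cluster, was at 0.0851 and 0.0652 RPKM at day 0, 0.170 and 0.202 at day 3, then 3.14 and 3.15 at day 9. Rtl1, a retrotransposon-derived gene of the paternal copy that is transcribed from the opposite strand of the same domain, was at 0.0657 and 0.0401 RPKM at day 0, 0.102 and 0.0947 at day 3, then 1.85 and 1.78 at day 9, and reads of its antisense partner could not be told apart from its own. All 4 of these genes were low in every library of days 0 to 3 and highest in both day 9 libraries. Dlk1 of the same domain did not pass the filter.

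H19 (NCBIM37 chr7:149761434-149764048), a non-coding RNA of the maternal copy whose locus also holds Igf2, rose earlier. Its levels were 9.78 and 10.4 RPKM at day 0, 13.5 and 13.8 at day 1, 40.7 and 41.0 at day 3, then 73.4 and 68.0 at day 9, a rise of 2.80 ± 0.06 (limma, adjusted p = 1.26e-13). WT was at 9.14 and 9.68 RPKM at day 0 and 21.2 and 19.6 at day 9 and rose too (1.11 ± 0.06), and the difference between KO and WT was 1.69 ± 0.08 (limma, adjusted p = 6.04e-09). Igf2, a fetal growth factor of the paternal copy, was at 0.568 and 0.598 RPKM at day 0, 1.11 and 0.992 at day 1, 2.05 and 1.97 at day 3, then 1.70 and 1.44 at day 9, highest at day 3. Grb10 (NCBIM37 chr11:11830511-11938686), an adaptor protein that restrains growth signalling, was the imprinted gene with the largest fall. It was at 7.68 and 7.12 RPKM at day 0, 8.57 and 7.87 at day 1, 7.02 and 7.11 at day 3, then 2.12 and 1.93 at day 9, with no difference beyond the spread at days 1 and 3 (log2 changes 0.15 ± 0.06 and -0.07 ± 0.06), and fell by 1.82 ± 0.06 at day 9 (limma, adjusted p = 4.67e-11) with WT at 7.32 and 7.61 RPKM at day 0 and 7.28 and 6.91 at day 9.

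Some genes expressed from the paternal copy were lower than at day 0 by day 3 and rose above it by day 9. Peg3, a zinc finger protein, was at 8.65 and 8.39 RPKM at day 0, 6.28 and 6.48 at day 1, 6.62 and 6.86 at day 3, then 15.3 and 14.4 at day 9. Snrpn, a splicing protein of the Prader-Willi region, was at 12.3 and 12.1 RPKM at day 0, 9.79 and 9.85 at day 1, 6.76 and 7.27 at day 3, then 16.2 and 15.8 at day 9. Each had its lowest libraries at days 1 or 3 and its highest at day 9, with day 9 changes of 0.80 ± 0.08 and 0.38 ± 0.07. Mest, a hydrolase-like protein, was at 3.56 and 3.27 RPKM at day 0, 3.02 and 2.94 at day 3, then 6.08 and 5.77 at day 9, a rise of 0.78 ± 0.07. Without such a dip, Impact, a translational regulator, rose by 1.04 ± 0.06, and Peg10, a retrotransposon-derived gene needed in the placenta, by 1.57 ± 0.07. In WT the changes of Peg3, Mest and Impact were -0.42, -0.12 and -0.18, and the differences between KO and WT were 1.21, 0.90 and 1.22, all called. Rises were also called for Zrsr1 (1.098), Zdbf2 (0.87), Ndn (0.55), Nnat (0.50), Slc38a4 (0.47) and Igf2r (0.45). Sfmbt2 (0.51) was higher too, but it passed the filter through later KO libraries alone, a route that favours a rise. Cdkn1c, a cell cycle inhibitor, and Phlda2, both of the maternal copy of the same domain, fell by 0.81 ± 0.09 and 0.63 ± 0.11, and in WT the changes were -0.89 and -0.43, while Mcts2 fell by 0.39 ± 0.07.

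**Figure D2:**
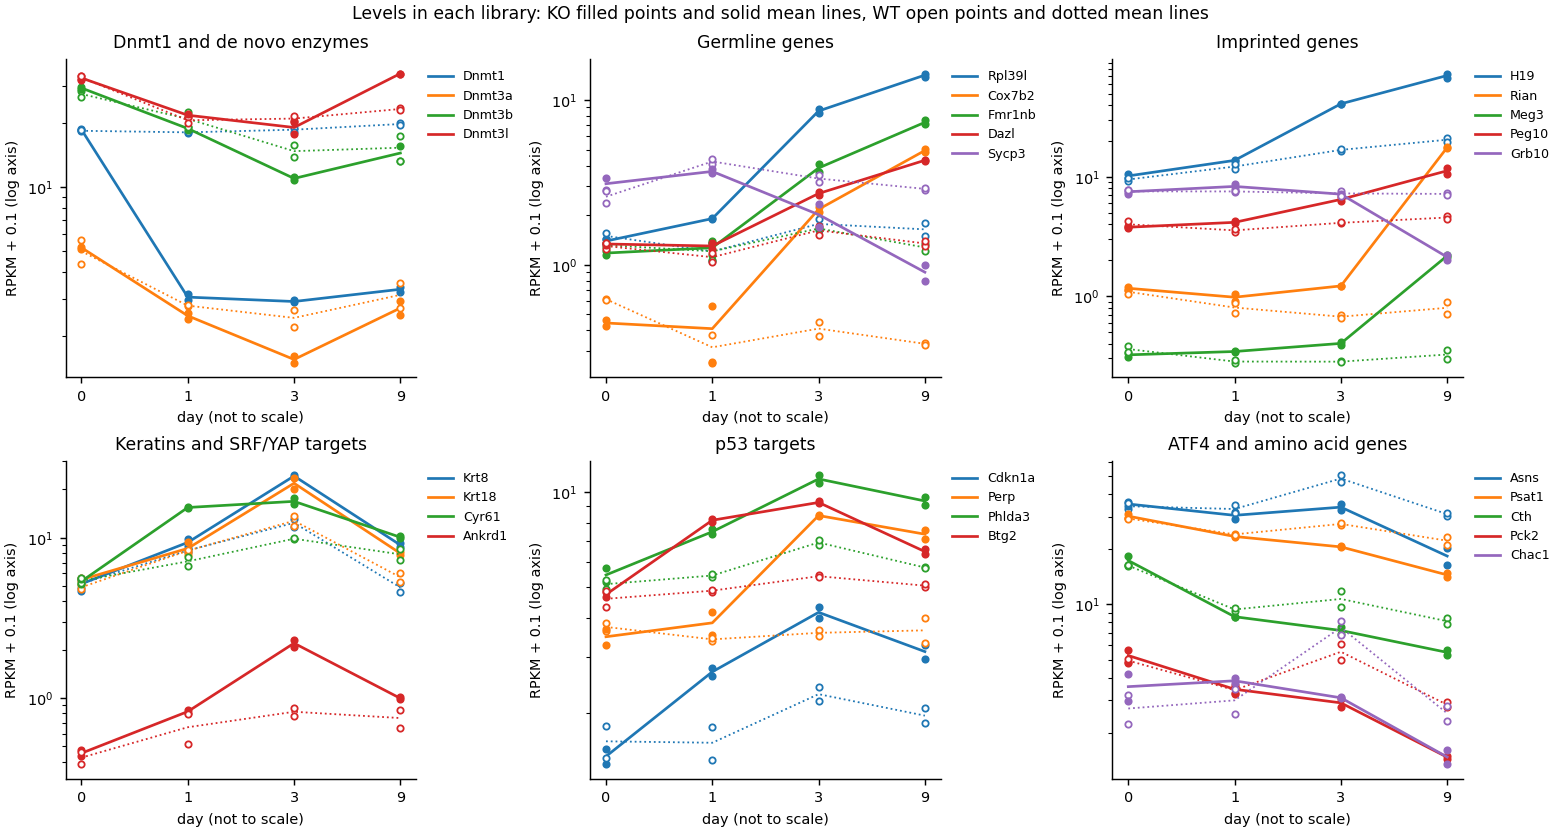
Levels in RPKM + 0.1 on a log axis (y) at days 0, 1, 3 and 9 (x, not to scale) of 27 genes in 6 panels: DNA methyltransferases, germline genes, imprinted genes, keratins and cytoskeletal genes, p53 targets, and genes of amino acid synthesis. Filled points are single KO libraries with solid lines through their means, and open points and dotted lines are WT. Dnmt1 is low from day 1. The germline gene Rpl39l is first called higher at day 1 and Dazl at day 3, while Sycp3 falls. Rian and Grb10 part from WT at day 9, Krt8 peaks at day 3, and Pck2 and Cth fall at every later day.

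Other silent or nearly silent genes of the germline and the X and Y chromosomes rose as well, and where day 0 levels were far below 1 RPKM the fitted changes depend on the pseudocount, so levels are given in their place. Rhox6, a homeobox gene of an X-linked cluster active in reproductive tissue, was at 0.219 and 0.284 RPKM at day 0, 0.193 and 0.196 at day 1, 3.098 and 3.22 at day 3, then 3.93 and 4.14 at day 9. Its neighbour Rhox9 was at 0.124 and 0.148 RPKM at day 0, 0.140 and 0.153 at day 1, 0.929 and 0.963 at day 3, then 1.22 and 1.37 at day 9. Both were near their day 0 level at day 1, and most of the rise was present by day 3. They were the 2 tested genes of 14 listed Rhox genes, and both passed the filter through later KO libraries alone. Xlr3a, an imprinted X-linked gene, was at 0.0182 and 0.0512 RPKM at day 0, 0.267 and 0.199 at day 3, then 2.01 and 1.92 at day 9. The similar Xlr3b was at 0.0260 and 0.0674 RPKM at day 0, 0.250 and 0.319 at day 3, then 1.80 and 1.92 at day 9, and at day 0 each held between 3 and 16 reads per library. Reads of near-identical copies within the Rhox and Xlr families may have been split or discarded, so the levels of these 4 genes are uncertain.

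Of 22 listed genes that mark the 2-cell embryo and the rare ESCs that resemble it, 4 were tested and all 4 were higher at day 9, but 3 of them passed the filter through later KO libraries alone. Zscan4c, which takes part in telomere maintenance in ESCs, was at 0.149 and 0.125 RPKM at day 0, 0.0726 and 0.111 at day 1, 0.363 and 0.384 at day 3, then 1.02 and 1.22 at day 9. Zscan4d was at 0.123 and 0.136 RPKM at day 0, 0.0559 and 0.0425 at day 1, 0.447 and 0.504 at day 3, then 1.69 and 1.45 at day 9, and both have near-identical copies in the genome that may share their reads. In WT, Zscan4c was at 0.123 and 0.158 RPKM at day 0 and 0.00615 and 0.0179 at day 9, and for both genes the KO day 9 libraries were above and the WT day 9 libraries below the day 0 libraries of their genotype. At the depth of the WT day 9 libraries, these levels of Zscan4c stand for fewer reads than the floor of 3, so the size of its fall in WT is uncertain. Calcoco2, the listed gene that passed the filter without the later KO libraries, was at 3.24 and 2.75 RPKM at day 0, 1.41 and 1.60 at day 1, 3.18 and 3.34 at day 3, then 7.17 and 6.02 at day 9 and rose by 1.11 ± 0.13, while WT fell (-0.53 ± 0.13). The Y-linked Ddx3y, an RNA helicase, was at 0.662 and 0.649 RPKM at day 0, 0.504 and 0.584 at day 1, 0.779 and 0.839 at day 3, then 3.76 and 3.15 at day 9. Eif2s3y, a translation factor subunit, was at 1.76 and 1.61 RPKM at day 0 and 3.52 and 3.17 at day 9, and in WT they fell by 0.90 ± 0.11 and 1.06 ± 0.09.

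Genes that mark the extraembryonic lineages rose from day 1 and were highest at day 3. Of 20 listed trophoblast genes 9 were tested, of which 8 were higher at day 1, 9 at day 3 and 8 at day 9, beside 23.3%, 31.9% and 26.0% of all genes, none was lower, and the median changes were 0.57, 1.26 and 0.81. In the fit with the libraries of later days added, 3 of the 9 were called at day 9, all higher. In WT, 8 of the 9 were also higher at day 3, beside 2161 of all 9331 genes, and 4 at day 9, beside 19.4%. Keratins and junction genes of simple epithelia and the transcription factors Tcfap2c and Tead4 were among the genes that rose, while Cdx2, Elf5, Hand1 and Gata3, the 4 defining markers, were all below the filter, with a summed level between 0.0927 and 0.0994 RPKM at KO day 0 and between 0.268 and 0.289 at day 9. Krt8, a keratin of simple epithelia, was at 5.53 and 4.58 RPKM at day 0, 8.76 and 9.73 at day 1, 24.5 and 23.9 at day 3, then 8.64 and 9.17 at day 9. Its partner Krt18 was at 5.25 and 5.51 RPKM at day 0, 7.69 and 9.26 at day 1, 23.5 and 20.1 at day 3, then 8.02 and 7.75 at day 9. Day 3 was above all other days in both, and at day 9 changes of 0.81 ± 0.09 and 0.54 ± 0.10 remained. In WT, Krt8 was at 4.78 and 5.37 RPKM at day 0, 11.5 and 13.1 at day 3, then 4.47 and 5.10 at day 9. At day 9 Gjb5 (1.41), Krt19 (1.2) and Tcfap2c (1.297) were higher as well. Gjb5 encodes a gap junction protein, and Tcfap2c is the earlier symbol of a transcription factor of trophoblast and germ cells.

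Of 19 listed primitive endoderm genes 13 were tested, and without Gata6, which passed the filter through later KO libraries alone, 11 of 12 were higher at day 1, 12 at day 3 and 11 at day 9, beside 23.3%, 31.9% and 26.0% of all genes, with medians of 0.65, 1.01 and 0.75. In the fit with later libraries added, 3 of the 13 were called at day 9. In WT, 10 of the 12 were higher at day 3, beside 2161 of all 9331 genes, but 1 was higher and 4 were lower at day 9, beside 19.4% and 18.5%. The difference of the day 9 change was positive for 11 of 12, beside 14.3% of all genes. Basement membrane genes were among them: Col4a1 rose by 1.06 ± 0.09, Col4a2 by 1.06 ± 0.08, Lama1 by 0.86 ± 0.08 and Sparc by 1.02 ± 0.06, and Pdgfra, a receptor of the lineage, by 1.196 ± 0.10. Gata4, a transcription factor that specifies primitive endoderm, was at 0.603 and 0.636 RPKM at day 0, 1.22 and 1.03 at day 1, 1.66 and 1.24 at day 3, then 0.873 and 0.988 at day 9, highest at day 3. Dab2, an endocytic adaptor, and Cubn, an uptake receptor, rose in KO (0.72 and 0.79) and fell in WT (-0.70 and -1.13). The 4 defining markers (Gata4, Gata6, Sox17 and Sox7) summed to between 1.62 and 1.74 RPKM at KO day 0, between 3.24 and 4.02 at day 3 and between 2.76 and 2.77 at day 9, and 3 of the 4 were below 1 RPKM in both day 9 libraries.

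Genes of the cytoskeleton that are known targets of SRF and YAP rose from day 1 or day 3. Of 19 tested, Ankrd1 passed the filter through later KO libraries alone, and of the other 18, 8 rose and 3 fell at day 1, 16 rose and none fell at day 3, and 16 rose and 1 fell at day 9, beside 26.0% and 24.3% of all genes. Their median change at day 9 was 0.81, against 0.07 in WT, and the 16 were first called at day 1 (8 genes) or day 3 (8 genes). The difference of the day 9 change was positive for 14 and negative for none of the 18, beside 14.3% and 12.5% of all genes. In the fit with later libraries added, however, 5 of the 19 were called at day 9 and none for this difference. Cyr61, a matricellular protein and YAP target, was at 5.08 and 5.41 RPKM at day 0, 15.3 and 15.4 at day 1, 17.5 and 16.1 at day 3, then 10.1 and 9.81 at day 9 and was above day 0 from day 1 on. S100a11, a calcium-binding protein, rose by 1.73 ± 0.10, Anxa2, a membrane-binding annexin, by 1.001 ± 0.09, Acta2, a smooth muscle actin, by 0.97 ± 0.09, Cald1, which binds actin and myosin, by 0.95 ± 0.08, and Lmna, the A-type lamin, by 0.93 ± 0.07. Cnn1, a calponin, was the listed gene that fell (-0.42 ± 0.11).

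Fibroblast genes rose by day 9, with a median of 47.8% of the day 9 change present at day 3 in the 11 rises that passed the filter without the later KO libraries. Of 20 listed, 14 were tested and none fell: without Fbn1 and Twist1, which passed the filter through later KO libraries alone, 11 of 12 were higher at day 9 (median 0.89), beside 26.0% of all genes, and 6 of 12 in WT (median 0.20), beside 19.4%. From day 3 to day 9, 8 of the 11 rose further and 1 fell, and in the fit with later libraries added 1 of the 14 was called at day 9. The summed level of the 20 was between 61.4 and 62.4 RPKM at KO day 0 and between 114.8 and 127.3 at day 9, against 53.1 to 60.02 and 67.9 to 73.9 in WT. Much of the sum came from genes that ESCs also express, such as Vim, an intermediate filament protein, at 20.8 and 20.6 RPKM at day 0 and 42.6 and 38.9 at day 9. S100a4, a calcium-binding protein, was at 11.7 and 10.4 RPKM at day 0 and 34.95 and 29.9 at day 9. The 11 defining fibroblast markers summed to between 8.80 and 9.03 RPKM at KO day 0, 10.4 and 11.24 at day 1, 11.9 at day 3 and between 15.9 and 17.7 at day 9, and WT to between 8.65 and 10.03 at day 9. Of these 11, 5 were below 1 RPKM in both day 9 libraries, and Lum, Dcn, Postn, Pdgfrb and Prrx1 did not pass the filter, while Col3a1 and Col1a1, fibrillar collagens, rose by 1.09 ± 0.15 and 0.53 ± 0.10. The methods describe culture with and without feeder cells, and the part of fibroblast RNA in the rises of the collagen, cytoskeletal and extraembryonic genes was not tested.

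Targets of p53 rose early. Of 21 tested, Ddit4l passed the filter through later KO libraries alone, and of the other 20, 14 were higher at day 1, 16 at day 3 and 16 at day 9, 1, 1 and 2 were lower, and the medians were 0.31, 0.64 and 0.44. Over all genes 23.3%, 31.9% and 26.0% were higher at these days. In the fit with later libraries added, 1 of the 21 was called at day 9 and none in the difference from WT. In WT, 9 of the 20 were higher at day 3 and 6 at day 9, beside 2161 of all 9331 genes at day 3 and 19.4% at day 9. The difference between KO and WT was positive for 14 at day 3 and for 10 at day 9 and negative for 0 and 1. Over all 9331 genes it was positive for 799 and negative for 706 at day 3, and for 14.3% and 12.5% at day 9. Cdkn1a, which encodes the cyclin-dependent kinase inhibitor p21, was at 1.27 and 1.43 RPKM at day 0, 2.52 and 2.67 at day 1, 4.21 and 3.90 at day 3, then 2.86 and 3.18 at day 9. It was above day 0 on every later day and highest at day 3, with a day 9 change of 1.104 ± 0.12 (limma, adjusted p = 5.35e-06), against 0.28 ± 0.12 in WT (limma, adjusted p = 0.0883). Perp, a membrane protein of apoptosis and cell adhesion, was at 3.17 and 3.59 RPKM at day 0, 3.43 and 4.07 at day 1, 8.30 and 8.34 at day 3, then 7.48 and 7.02 at day 9, a change of 1.08 ± 0.09. Mdm2, the ubiquitin ligase of p53, rose by 0.51 ± 0.06, Ccng1, cyclin G1, by 0.54 ± 0.05 and Phlda3, an inhibitor of AKT, by 0.78 ± 0.06. Bbc3, which encodes the pro-apoptotic PUMA, and Sesn2, a stress-induced inhibitor of mTORC1, were the 2 that fell (-0.55 ± 0.07 and -0.20 ± 0.06).

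Genes of amino acid synthesis and other ATF4 targets were mostly lower at every later day. Of 22 tested, 13 were lower and 1 higher at day 1, 14 and 2 at day 3, and 19 and none at day 9, and the median day 9 change was -0.71. Over all genes 20.5%, 25.5% and 24.3% were lower at these days. In the fit with later libraries added, 8 of the 22 were called lower at day 9 and none in the difference from WT. WT fell in part: 16 of 22 were lower and 1 higher at day 9 with a median of -0.34, beside 18.5% and 19.4% of all genes. The difference between KO and WT was negative for 15 and positive for 1, beside 12.5% and 14.3% of all genes. At day 3, 5 of the 22 were lower and 4 higher in WT, beside 1430 and 2161 of all 9331 genes. The difference at day 3 was negative for 15 and positive for 1, beside 706 and 799 of all 9331. In the step from day 3 to day 9, 16 of the 22 fell in the KO cells and none rose.

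Pck2 is not among the 22 but was the largest fall at day 9 after Dnmt1 by the rule for named genes. It encodes the mitochondrial phosphoenolpyruvate carboxykinase, which is known to be induced by ATF4, and it was at 5.56 and 4.79 RPKM at day 0, 3.56 and 3.15 at day 1, 2.97 and 2.66 at day 3, then 1.40 and 1.35 at day 9, a fall of 1.84 ± 0.10 (limma, adjusted p = 4.2e-09), with WT at 4.72 and 4.97 RPKM at day 0 and 2.84 and 2.65 at day 9. Cth, the cystathionine gamma-lyase that makes cysteine, was at 18.2 and 16.3 RPKM at day 0, 8.48 and 8.47 at day 1, 6.77 and 7.47 at day 3, then 5.23 and 5.54 at day 9, and most of its fall of 1.66 ± 0.08 was present at day 1. Psat1, a transaminase of serine synthesis, was at 30.9 and 29.5 RPKM at day 0, 23.3 and 23.4 at day 1, 20.6 and 20.4 at day 3, then 14.1 and 14.7 at day 9 and fell by 1.06 ± 0.05. The other enzymes of serine synthesis fell with it, Phgdh by 0.90 ± 0.05 and Psph by 1.37 ± 0.07. Asns, the asparagine synthetase, had most of its fall of 0.95 ± 0.09 after day 3. Its levels were 36.0 and 34.4 RPKM at day 0, 31.8 and 29.2 at day 1, 35.1 and 32.5 at day 3, then 16.3 and 20.3 at day 9, while WT was at 32.9 and 35.5 RPKM at day 0, 46.3 and 50.6 at day 3, then 30.4 and 31.5 at day 9.

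Chac1, which degrades glutathione, and Pycr1, a proline synthesis enzyme, hold the ATF4 letters in the promoters printed above. Chac1 was at 4.07 and 2.87 RPKM at day 0, 3.86 and 3.62 at day 1, 3.02 and 2.99 at day 3, then 1.25 and 1.504 at day 9, and in WT it was at 3.1 and 2.13 RPKM at day 0, 6.75 and 8.06 at day 3, then 2.69 and 2.21 at day 9, higher at day 3. It fell by 1.26 ± 0.19 at day 9 (limma, adjusted p = 6.63e-05), against a WT change of -0.07 ± 0.19, but it was not called in the fit with later libraries added (limma, adjusted p = 0.385). Pycr1 was at 1.84 and 1.77 RPKM at day 0, 2.26 and 1.97 at day 1, 2.30 and 2.25 at day 3, then 1.11 and 1.19 at day 9, so it was above day 0 in the libraries of days 1 and 3 and below it at day 9, a fall of 0.61 ± 0.10 (limma, adjusted p = 0.00018). Aars, the alanyl-tRNA synthetase, fell by 0.78 ± 0.05, and Atf4 itself by 0.30 ± 0.06.

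**Figure D3:**
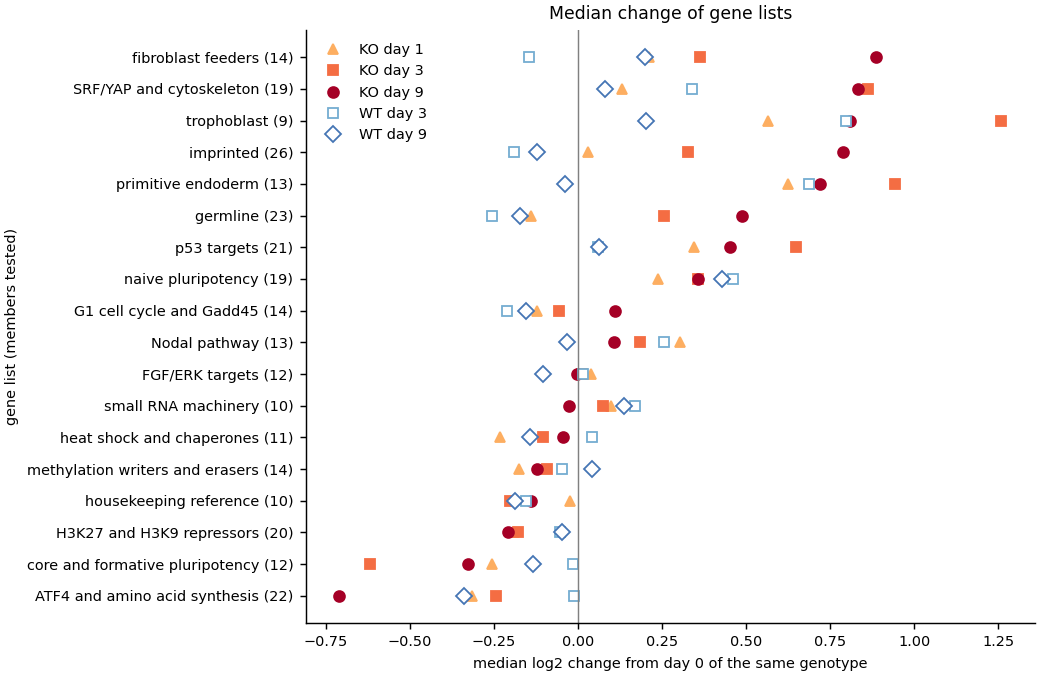
Median change on the log2(RPKM + 0.1) scale (x axis) of the tested genes of 18 gene lists (y axis) against day 0 of the same genotype. Triangles, squares and circles are KO days 1, 3 and 9, and the open square and diamond are WT days 3 and 9. The imprinted list moves right at day 9 (0.79 over all 26 tested), the p53, trophoblast and primitive endoderm lists are farthest right at day 3, and the ATF4 list lies left of zero at day 9 (-0.71). The medians include genes that passed the filter through later KO libraries alone.

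Most pluripotency genes changed by less than 1 log2 unit. Of 19 naive pluripotency genes 13 were higher and 3 lower at day 9 (median 0.36), beside 26.0% and 24.3% of all genes, and in WT 12 were higher and 2 lower (median 0.43), beside 19.4% and 18.5%. The difference between KO and WT was positive for 3 of the 19 and negative for 3, near the shares of 14.3% and 12.5% over all genes. In the fit with later libraries added none of the 19 was called at day 9 (limma). Nanog was at 18.2 and 16.4 RPKM at day 0, 22.0 and 19.19 at day 1, 31.3 and 29.6 at day 3, then 27.1 and 31.1 at day 9, a rise of 0.75 ± 0.11 with 0.51 ± 0.11 in WT, and Klf4 and Esrrb rose by 0.59 ± 0.10 and 0.36 ± 0.10. Prdm14, a repressor of differentiation genes in naive ESCs, rose by 1.18 ± 0.13, and Fgf4, the growth factor by which ESCs leave the naive state, fell by 0.36 ± 0.05 where WT rose (0.20). Of 12 genes of the core and formative network, 0 were higher and 6 lower at day 9 (median -0.33, and 2 lower in the fit with later libraries added), beside 26.0% and 24.3% of all genes. In WT, 3 of the 12 were higher and 4 lower, beside 19.4% and 18.5%. Pou5f1, which encodes OCT4, was at 86.1 and 80.7 RPKM at day 0, 59.4 and 61.7 at day 1, 45.5 and 47.4 at day 3, then 62.1 and 58.4 at day 9 and fell by 0.47 ± 0.05, with -0.39 ± 0.05 in WT, while Sox2 was at 46.5 and 47.8 RPKM at day 0 and 47.4 and 46.5 at day 9 (log2 change -0.01 ± 0.05, limma, adjusted p = 0.915).

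Otx2, a transcription factor of the formative state, moved in opposite directions in the genotypes. Its levels were 2.42 and 2.50 RPKM at day 0, 2.55 and 2.35 at day 1, 1.25 and 1.26 at day 3, then 0.984 and 0.876 at day 9 in the KO libraries and 2.83 and 2.73 RPKM at day 0, 4.37 and 4.48 at day 3, then 3.36 and 3.32 at day 9 in WT, so it fell by 1.32 ± 0.07 in KO (limma, adjusted p = 3.59e-09) and rose by 0.26 ± 0.07 in WT (limma, adjusted p = 0.0106). Lefty2, an inhibitor of Nodal, was at 8.24 and 8.01 RPKM at day 0, 16.2 and 15.1 at day 1, 32.9 and 36.5 at day 3, then 28.2 and 28.6 at day 9, a rise of 1.79 ± 0.08. Its paralog Lefty1 was at 22.2 and 21.4 RPKM at day 0, 38.3 and 43.8 at day 1, 25.7 and 26.1 at day 3, then 17.6 and 15.2 at day 9, a fall of 0.42 ± 0.08. Lefty1 peaked at day 1 and Lefty2 at day 3, while in WT Lefty2 was at 8.27 and 7.55 RPKM at day 0, 19.3 and 22.6 at day 3, then 8.73 and 9.97 at day 9. Of the 13 tested genes of the Nodal pathway, 4 were higher and 3 lower at day 9 (median 0.11), near the shares of 26.0% and 24.3% over all genes, but 3 higher and 5 lower with the library medians set equal. Nodal rose by 0.39 ± 0.05, with -0.01 ± 0.05 in WT.

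Among the 14 tested genes that write, read or remove DNA methylation, 3 were higher and 6 lower at day 9, beside 26.0% and 24.3% of all genes. The de novo methyltransferases Dnmt3a and Dnmt3b fell in both genotypes, as listed below, while Dnmt3l, their cofactor, was at 33.0 and 31.9 RPKM at day 0, 21.4 and 22.0 at day 1, 17.8 and 20.2 at day 3, then 34.1 and 34.1 at day 9: it fell by day 3 and was back at day 9, where WT was lower (-0.49 ± 0.06). Uhrf1, which brings DNMT1 to newly replicated DNA, and Tet1, which oxidises methylcytosine, rose by 0.24 ± 0.07 and 0.26 ± 0.07. In WT the change of Tet1 was 0.41.

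The largest rises by the rule for named genes that belong to none of the lists were these. Slc38a6, a transporter related to amino acid carriers, was at 3.71 and 3.79 RPKM at day 0, 4.62 and 5.24 at day 1, 17.7 and 16.9 at day 3, then 28.3 and 32.7 at day 9, a rise of 2.99 ± 0.07 (limma, adjusted p = 2.23e-13). Ccrn4l, which encodes Nocturnin, a phosphatase with a daily rhythm, was at 6.12 and 6.66 RPKM at day 0, 8.26 and 8.03 at day 1, 23.9 and 21.7 at day 3, then 41.5 and 45.9 at day 9, a rise of 2.76 ± 0.06. Ly6a, the surface protein Sca-1, was at 0.330 and 0.545 RPKM at day 0, 0.646 and 1.07 at day 1, 1.19 and 1.03 at day 3, then 4.45 and 3.56 at day 9, a rise of 2.96 ± 0.26, and it rose in WT too (1.35 ± 0.26). In all 3, day 9 was also above the KO libraries of days 1 and 3, while separation from day 0 was a condition for naming them. The unnamed gene models Gm14149 (3.97), Gm17672 (3.42), Gm2783 (3.103) and Gm17462 (2.62) also rose, and Gm2783 overlaps Gab2 on the opposite strand. Of the rises first called at day 9, Oaf (1.51), Gm10260 (1.48) and Gm17290 (1.44) were the largest after Rian and Ddx3y, and the last 2 are overlapping models that held the same number of reads in every library and so are 1 measurement.

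Large falls outside the lists began at different days. Optn, an autophagy receptor, was at 1.35 and 1.36 RPKM at day 0, 1.36 and 1.42 at day 1, 0.905 and 0.802 at day 3, then 0.563 and 0.488 at day 9, a fall of 1.22 ± 0.08 first called at day 3, though it overlaps 4930551O13Rik on the opposite strand. Igfbp2, a binding protein of insulin-like growth factors, was at 60.5 and 62.0 RPKM at day 0, 54.2 and 59.3 at day 1, 31.6 and 32.0 at day 3, then 29.6 and 33.0 at day 9, so day 9 was near day 3, with WT at 60.9 and 65.2 RPKM at day 0 and 64.0 and 70.2 at day 9. Kif1a, a kinesin of axonal transport, first rose and then fell, and was at 0.973 and 0.861 RPKM at day 0, 2.27 and 1.97 at day 1, 1.15 and 1.22 at day 3, then 0.394 and 0.372 at day 9. First called at day 9 were Acot1, an acyl-CoA thioesterase (-0.98 ± 0.08), and Flywch2 (-1.11 ± 0.13), which overlaps Gm16275 on the opposite strand, and the falls of Rln3, a relaxin peptide, and Tmem59l were 1.21 ± 0.17 and 1.17 ± 0.10.

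Some changes came and went. At day 3, 669 genes were higher, not called higher at day 9 and fell between those days, and 475 were lower, not called lower at day 9 and rose between them, and 81 genes were called in opposite directions at days 3 and 9. The 5 largest such rises at day 3 were Pga5 (1.71), Amot (1.19), S100a1 (1.096), Cyba (1.06) and Fxyd6 (1.05). Amot, a regulator of the Hippo pathway, was at 1.57 and 1.47 RPKM at day 0, 2.46 and 2.28 at day 1, 3.85 and 3.36 at day 3, then 1.74 and 1.84 at day 9, with WT at 1.57 and 1.66 RPKM at day 0, 3.17 and 3.40 at day 3, then 0.878 and 0.881 at day 9, so the peak at day 3 was present in both genotypes and WT ended lower. The 5 largest such falls were Ankrd37 (-1.57), Ndufa4l2 (-1.52), Aire (-1.52), Gm12867 (-1.43) and Egln3 (-1.35). Egln3, a prolyl hydroxylase that marks hypoxia-inducible factor for degradation, was at 2.61 and 2.38 RPKM at day 0, 1.64 and 2.54 at day 1, 0.780 and 1.07 at day 3, then 2.15 and 2.56 at day 9 in KO and 2.45 and 3.01 RPKM at day 0, 1.35 and 1.52 at day 3, then 2.87 and 2.98 at day 9 in WT. Aire overlaps Dnmt3l, Gm12867 overlaps Slc2a1, and Cyba, Ankrd37 and Ndufa4l2 overlap other genes on the opposite strand, so their values are uncertain to that extent.

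The largest changes shared with WT, where the difference between the genotypes was not called, were led by Lars2, the mitochondrial leucyl-tRNA synthetase, at 1.34 and 3.16 RPKM at day 0, 2.97 and 1.49 at day 1, 2.96 and 25.18 at day 3, then 18.6 and 9.24 at day 9. Its libraries of 1 group differed by up to several fold, its call (limma, adjusted p = 0.0275) was lost without replicate 1 of KO day 0 (adjusted p = 0.181) or of KO day 9 (0.153), and nothing more is drawn from it. Shared rises with smaller spread were found for Efemp1, an extracellular matrix protein, at 1.22 and 1.17 RPKM at day 0 and 3.74 and 3.25 at day 9 (1.47, and 1.25 in WT), for Anxa8 (1.34 and 1.03), for Thy1, one of the fibroblast markers (1.17 and 0.76), and for Gm12139 (1.99 and 1.35). Among the shared falls, Dnmt3b was at 29.4 and 28.9 RPKM at day 0, 18.5 and 19.04 at day 1, 10.7 and 11.09 at day 3, then 15.5 and 13.2 at day 9. Dnmt3a was at 5.04 and 5.17 RPKM at day 0, 2.48 and 2.31 at day 1, 1.40 and 1.505 at day 3, then 2.81 and 2.40 at day 9. Both were lowest at day 3, and their day 9 changes were -1.02 ± 0.11 and -0.95 ± 0.13 in KO and -0.85 ± 0.11 and -0.68 ± 0.13 in WT, but neither was called in the fit with later libraries added (limma, adjusted p = 0.0807 and 0.485). Dnmt3b, Dnmt3a and 2010107H07Rik, named next, overlap other genes on the opposite strand, so their values are uncertain to that extent. Plac8 (-1.26 and -1.21), Pou3f1, a POU factor of the formative state (-0.999 and -0.78), and 2010107H07Rik (-0.83 and -1.07) fell as well, and the last lost its call without replicate 2 of KO day 9 (adjusted p = 0.0651).

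**Figure D4:**
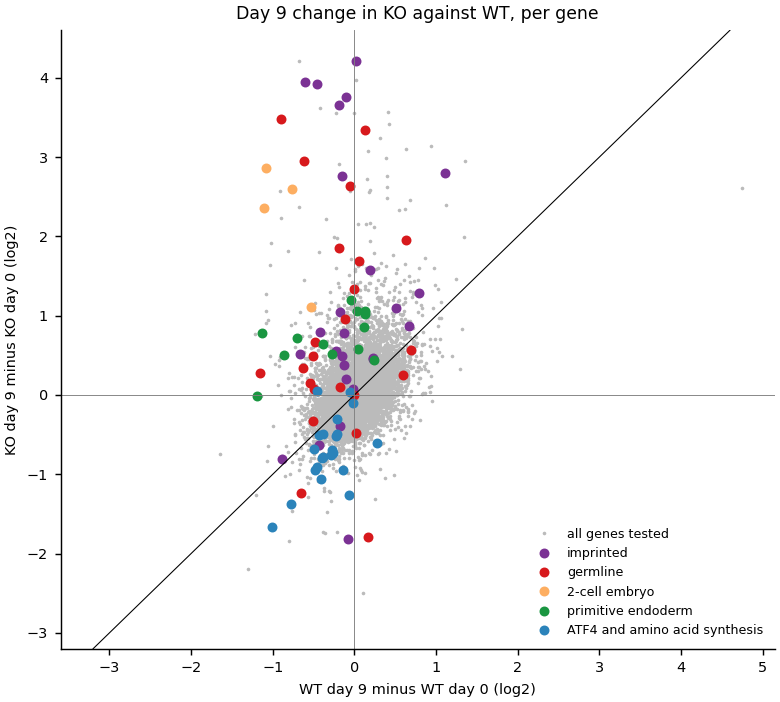
Change from day 0 to day 9 on the log2(RPKM + 0.1) scale in WT (x axis) and in KO (y axis). Each grey point is a tested gene, colours mark the imprinted, germline, 2-cell embryo, primitive endoderm and ATF4 lists, and the diagonal is the line of equal change. Rian (3.92 in KO, -0.45 in WT) and Cox7b2 (3.48 and -0.90) are among the genes far above the diagonal. Cox7b2 passed the filter on low levels through later KO libraries alone.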

How the data were processed

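Total RNA from mouse ESCs was depleted of ribosomal RNA and sequenced in stranded libraries as paired reads. The authors trimmed reads with Trim Galore (version 0.3.5), aligned them with TopHat2 (version 2.0.11) to build NCBIM37, removed those whose mapping quality was low and counted genes in SeqMonk. The values deposited by the authors are linear RPKM per gene and library, although the methods name log2 RPM, and their own gene calls used DESeq2 with an intensity filter. No deposited column went unmapped.

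A gene was tested where 2 or more of the 16 libraries had it above RPKM 1 (9331 of 26127 genes). Group means of log2(RPKM + 0.1) were fitted over the 8 groups in R 4.3.3 by limma 3.58.1 (a trended eBayes after lmFit, 8 residual and 6.51 prior degrees of freedom), with two-sided tests, Benjamini-Hochberg adjustment and a threshold of 0.05. All groups share 1 estimate of the spread because each has 2 libraries. Reads were recovered with exon lengths of the same build, and 99.5% to 99.7% of values below 20 reads became whole within 0.1. The floor was set at 3 reads, which covers counting error alone. The script was tested on simulated data.

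The named genes were the 12 largest rises and falls at KO day 9 also called in the same direction in the difference from WT (mean log2 level of at least 0 over the 8 KO libraries, and no overlap of the day 0 and day 9 values), the 5 largest of each first-day class, the 5 largest transient changes at day 3 and the 5 largest changes shared with WT, beside members of the lists. The members and lists were chosen with earlier results of these data known. Alternatives were the pseudocount, the filter, 2 scalings, voom on recovered reads, other sets of libraries, a replicate block, leaving out each library and a stricter threshold, and counts of changes of at least 1 log2 unit and the first day taken from the difference from WT were added after the values were seen. RefSeq promoters are of build GRCm38.p6. Transposons and antisense transcripts were not analysed here. For 1 member of the trophoblast list no value is reported here.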

Additional observations from a re-analysis of the deposited data

Results flagged for a closer look

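For 22 genes the day 9 change was called by limma in both genotypes but in opposite directions, with the difference of the 2 changes at 1 log2 unit or more and called as an interaction (adjusted p from 2.24e-10 to 0.000532). Differences and changes below are on the log2(RPKM + 0.1) scale, and for genes far below 1 RPKM, such as Zscan4c and Zscan4d at day 0, they depend on the pseudocount. All but Otx2 were higher in KO and lower in WT at day 9, but 9 of the 22 (Cox7b2, Ddx3y, Fkbp6, Gata6, Gm5662, Sfmbt2, Stk31, Zscan4c and Zscan4d) passed the filter on low levels through KO libraries after day 0 alone, a route that favours this direction.

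For germline genes the difference between KO and WT was Cox7b2 4.38 (3.48 in KO and -0.90 in WT), Fkbp6 3.57 (2.95 in KO and -0.62 in WT), Stk31 1.15 (0.67 in KO and -0.49 in WT) and Tex19.1 1.00 (0.49 in KO and -0.51 in WT). For imprinted genes it was Rian 4.38 (3.92 in KO and -0.45 in WT), Impact 1.22 (1.04 in KO and -0.18 in WT), Peg3 1.21 (0.80 in KO and -0.42 in WT) and Sfmbt2 1.19 (0.51 in KO and -0.67 in WT). For genes of the 2-cell embryo it was Zscan4c 3.46 (2.36 in KO and -1.10 in WT), Zscan4d 3.94 (2.86 in KO and -1.08 in WT), Gm5662 3.36 (2.59 in KO and -0.76 in WT) and Calcoco2 1.64 (1.11 in KO and -0.53 in WT), and Zscan4c and Zscan4d have near-identical copies. The WT day 9 libraries held fewer reads of Zscan4c than the floor of 3, so the size of its fall in WT is uncertain. For the Y-linked genes the difference was Ddx3y 3.12 (2.23 in KO and -0.90 in WT) and Eif2s3y 2.01 (0.95 in KO and -1.06 in WT).

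For genes of the primitive endoderm list the difference was Cubn 1.92 (0.79 in KO and -1.13 in WT), Dab2 1.42 (0.72 in KO and -0.70 in WT), Foxq1 1.38 (0.51 in KO and -0.87 in WT) and Gata6 1.03 (0.64 in KO and -0.38 in WT). For genes of the cytoskeleton and of fibroblasts it was Acta2 1.28 (0.97 in KO and -0.31 in WT), Myl9 1.17 (0.78 in KO and -0.39 in WT) and Col5a2 1.02 (0.68 in KO and -0.34 in WT). The summed level of the 11 fibroblast markers rose in KO, from between 8.80 and 9.03 RPKM at day 0 to between 15.9 and 17.7 at day 9. In WT the sum was between 7.46 and 9.23 RPKM at day 0 and between 8.65 and 10.03 at day 9, so it did not fall as these genes did. The part of fibroblast RNA in these differences was not tested. Otx2 went the other way, with a difference of -1.57 (-1.32 in KO and 0.26 in WT). Each group had 2 libraries, too few to look for a single library that stands apart.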

How the results depend on the processing

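The alternatives were followed for the genes named by the rule, which were picked for being called, and not for other list members one by one. None of these genes changed direction. In a fit of group means, a change of filter, threshold, replicate block or libraries outside a contrast leaves the log2 change of a gene as it was. Such settings could not reverse a direction, while the pseudocount, the scalings, voom and leaving out a library of the contrast could. Counts of genes called fell with the filter at RPKM above 4, where 4000 genes were tested in place of 9331, so a lower count is not a lower share. They were 2397 at KO day 9 against day 0, 2667 at day 3, 2167 at day 1, 1679 from KO day 1 to 3, 1583 from day 3 to 9, 2064, 1916 and 1552 in WT at days 9, 3 and 1, and 1331 and 966 for the difference between KO and WT at days 9 and 3, with 494 genes first called at day 9 and 147 calls among list genes. A fit over all WT and KO libraries except day 6, which adds libraries with more reads in exons, gave 265, 434, 161, 108, 45, 8, 32, 13, 59 and 15 in the same order, 0 for the difference at day 1 (limma, with 46 at an unadjusted p under 0.05), 99 genes first called at day 9 and 56 calls among list genes, of which imprinted genes had 10 higher and 1 lower (20 and 4 over the 16 libraries), germline genes 8 and 2 (14 and 4), ATF4 genes 0 and 8 (0 and 19), p53 genes 1 higher (17), fibroblast genes 1 (13), primitive endoderm genes 3 (12), cytoskeletal genes 5 (17), trophoblast genes 3 (8) and naive pluripotency genes 0 (13). These list counts include genes that passed the filter through later KO libraries alone. Without them the counts over the 16 libraries were 14 and 4 for imprinted genes, 9 and 4 for germline genes and 16 higher for p53 genes. For fibroblast, primitive endoderm and cytoskeletal genes 11, 11 and 16 were higher. Of all 9331 genes, 26.0% were higher and 24.3% lower over the 16 libraries, and 215 and 50 genes in the fit over all libraries. In that fit no p53, cytoskeletal, fibroblast or ATF4 gene was called in the difference from WT. For comparison, 1165 genes were first called at day 9 and list genes had 227 calls.

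At an adjusted p under 0.01 the counts were 1837 from KO day 1 to 3, 1758 from day 3 to 9, 2150, 2190 and 1568 in WT at days 9, 3 and 1, and 1352, 631 and 29 for the difference at days 9, 3 and 1. The difference at day 1, 102 genes, was the least stable: 45 with no filter, 46 over the groups compared alone and 341 with voom, and without 1 library 43 and 63 (KO day 0 replicates 1 and 2), 55 (KO day 1 replicate 1), 44 (WT day 0 replicate 2), 37 and 49 (WT day 1 replicates 1 and 2). With no filter 2035 genes were first called at day 9, and 137 when a change of 1 log2 unit was asked for at each day as well. Without 1 library at a time the counts ranged from 3419 to 4724 for KO day 9, 4199 to 5385 for day 3, 2794 to 4108 for day 1, 2123 to 3221 from KO day 1 to 3, 1797 (without KO day 9 replicate 1; 2002 without KO day 3 replicate 1) to 3171 from day 3 to 9, 2071 (without WT day 9 replicate 2) to 3534 for WT day 9, 2423 to 3593 for WT day 3, 1384 (without WT day 1 replicate 2; 1709 without WT day 0 replicate 1) to 2825 for WT day 1, 1853 to 2519, 796 (without KO day 0 replicate 1; 939 without WT day 3 replicate 2) to 1499 and 37 to 133 for the difference at days 9, 3 and 1, 793 to 1438 first called at day 9 and 196 to 228 list calls. The cause of these shifts was not tested.

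The labels number the replicates 1 and 2 in every group but do not say that a number marks a shared culture, and deviations of same-numbered libraries correlated between -0.19 and 0.16. With the replicate block 4685 genes were called at KO day 9, 5338 at day 3 and 2510 in the difference at day 9. With the KO day 9 numbers crossed, an alternative chosen after seeing the data, the first and last were 4613 and 2384. Named genes kept their call in 829 of 832 values with 1 library left out and in 630 of 650 under other settings, and 18 of the 20 lost calls came from the fit over all libraries (Chac1, Rln3, Oaf, Gm10260, Gm17290, Kif1a, Efemp1, Thy1, Dnmt3a, Dnmt3b, Lars2 and 2010107H07Rik at day 9, and Pga5, S100a1, Fxyd6, Ankrd37, Ndufa4l2 and Egln3 at day 3). The lists of heat shock, Nodal, mesoderm and neural, FGF and small RNA genes changed the sign of their balance or median at day 3 or 9 with the scaling or with voom.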

Other observations

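Genes of the machinery that places repressive histone marks were mostly lower in the KO cells at day 9. Of 20 tested genes of the H3K27 and H3K9 methylation systems, 12 were lower and 1 higher at day 9 (median -0.21), beside 24.3% and 26.0% of all genes. In WT, 4 were lower and 4 higher (median -0.05), beside 18.5% and 19.4%. The difference between KO and WT was negative for 8 and positive for none, beside 12.5% and 14.3% of all genes, but none of the 20 was called in the limma fit over all libraries except day 6. Trim28, the corepressor of KRAB zinc finger proteins, was at 102 and 100.3 RPKM at KO day 0 and 85.0 and 78.2 at day 9. It fell by 0.31 on the log2 scale in KO and by 0.47 in WT. Cbx1, a heterochromatin protein, changed by -0.55, Rbbp4, a histone-binding subunit, by -0.38 and Suv39h1, an H3K9 methyltransferase, by -0.36, and Suz12 of polycomb complex PRC2 was the member that rose (0.24).

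Of 14 regulators of the G1 phase, 6 were higher and 2 lower at KO day 9, beside 26.0% and 24.3% of all genes. The D-type cyclins Ccnd1 (0.64), Ccnd2 (1.24) and Ccnd3 (0.88) rose, as did the inhibitors Cdkn2a (1.17) and Cdkn2b (0.54), and Cdkn1b fell (-0.25). The same shares over all genes apply to the counts of the lists that follow, each of which rests on 12 genes or fewer. Of 7 tested genes of the interferon and double-stranded RNA response, 2 were higher at day 9, Ifitm3 (0.64) and Ifitm1 (0.50), and none was lower. Of 10 genes of small RNA processing 2 were higher and 3 lower, with a change of 0.00 for Dicer1 and a rise of 0.34 for Eif2c2, the earlier symbol of Ago2. Of 12 targets of FGF and ERK signalling 2 were higher and 4 lower, of 11 heat shock genes 4 were higher and 4 lower (6 and 1 under quantile normalization), and of 2 tested genes of the Prame list 1 was higher. Of 2 tested genes of the mesoderm and neural list 1 was higher, but none was higher and 1 lower with the library medians set equal. Of 10 housekeeping genes 2 were higher and 5 lower at KO day 9 (median -0.14), and in WT 1 was higher and 6 lower (median -0.19), beside 19.4% and 18.5% of all genes in WT.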
